A study of Mus musculus with 2 samples.

Results

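The T-box and Pitx genes that pattern the limb were followed in single cells of mouse limb muscle. The 7 genes were Tbx5, Tbx4, Pitx1, Tbx2, Tbx3, Tbx15 and Tbx18. They were chosen by symbol, and all 7 were found among the 32285 genes of each count matrix. The study made 1 droplet library from limb skeletal muscle at embryonic stage E12.5 and 1 at E15.5. Both came from wild-type C57Bl/6 embryos, and the library of each age pooled fore- and hindlimbs. No label tells which limb a cell came from, so each library is a mixture of forelimb and hindlimb cells. How many embryos were pooled, and of which sex, is not given in the labels. With 1 library per age there is no replicate, so no test was run, and every interval below is a 95% interval that covers counting error only.

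T-box proteins are transcription factors that bind DNA through a shared domain, the T-box, and Pitx1 is a homeodomain transcription factor. In the early limb field Tbx5 is made in the forelimb and Tbx4 and Pitx1 in the hindlimb, where Pitx1 acts upstream of Tbx4. Tbx5 and Tbx4 drive the start of limb outgrowth and later act in the connective tissue that patterns muscle and tendon. Tbx2 and Tbx3 are repressors known from the margins of the limb bud and the control of digit identity, and Tbx15 and Tbx18 are a closely related pair active in limb and trunk mesenchyme.

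The relatedness of T-box genes can be read in their coding sequence. The stretch below is the part of the DNA-binding domain most alike between Tbx4 and 4 other members, and is shown because it bears on whether reads of these genes could be mistaken for each other. Each line gives 60 bases of the coding strand from the GENCODE transcripts of build GRCm38, 5′ to 3′, with capitals at the bases that differ from Tbx4.
Tbx4: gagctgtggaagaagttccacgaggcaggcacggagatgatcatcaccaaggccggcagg
Tbx15: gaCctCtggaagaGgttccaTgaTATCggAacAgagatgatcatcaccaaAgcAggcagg
Tbx18: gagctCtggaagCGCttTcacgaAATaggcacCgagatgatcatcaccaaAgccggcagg
Tbx2: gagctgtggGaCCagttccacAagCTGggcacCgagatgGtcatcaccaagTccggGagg
Tbx3: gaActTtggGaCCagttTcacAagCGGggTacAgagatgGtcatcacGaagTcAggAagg
Tbx18 matched Tbx4 at 50 of the 60 bases, Tbx2 at 49, Tbx15 at 48 and Tbx3 at 43. Tbx2 and Tbx3 matched each other at 51, and Tbx15 and Tbx18 at 50. In each of these genes the last base of the stretch lies in the next exon. For Tbx4 the stretch covers chr11:85890893-85890951 in exon 2 and chr11:85898493-85898493 in exon 3, on the plus strand. The counted reads come from transcript 3′ ends. Over whole transcripts the longest run of identical bases shared by any pair of the 7 genes was 23 bases, found for Tbx5 with Tbx4 and for Tbx15 with Tbx18.

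The genes are protein-coding and lie on 5 chromosomes of GRCm38. Tbx3 (chr5:119670669-119684724) and Tbx5 (chr5:119832668-119885219) are neighbours on the plus strand, 147.943 kb apart with 0 protein-coding genes between them. Tbx2 (chr11:85832551-85841948) and Tbx4 (chr11:85886422-85916097) lie 44.473 kb apart on the plus strand with 1 annotated protein-coding gene between them. Pitx1 (chr13:55825051-55836192, minus strand), Tbx15 (chr3:99240381-99354259, plus strand) and Tbx18 (chr9:87702800-87731260, minus strand) stand alone. Tbx3 overlaps the antisense gene Tbx3os1, Tbx15 overlaps Gm43120, and Pitx1 overlaps the antisense gene Gm47071 and the same-strand gene Gm28760. Whether counting used strand is not given in the sources used here, so reads in these overlaps cannot be assigned with certainty.

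After filtering, 11001 cells were kept at E12.5 and 3916 at E15.5, with a median of 2322 and 9326 unique molecular identifiers (UMIs) per cell. A UMI marks 1 captured RNA molecule. The libraries held 12941 and 5780 barcodes, of which 17 occurred in both. Cells were clustered without the 7 genes, and clusters were named from marker genes. Connective tissue-like cells were the largest class of each library, 7714 cells of the E12.5 library and 1878 of the later one. Tenocyte-like cells (tendon) numbered 462 and 160, chondrocyte-like cells (cartilage) 1201 and 361, and muscle-lineage-like cells 615 and 400. The E12.5 tenocyte-like class was a single cluster led by Thbs4. Its 7 markers did not all stand out. Scx was at 176 CPM (UMIs of the gene per 1000000 UMIs of the class) against 60.4 in all other cells, and Mkx, Thbs4 and Fmod were at 109, 114 and 56.0 against 14.4, 5.88 and 8.18. Thbs2 was about level, at 18.2 against 14.9, and Kera was lower, at 23.1 against 37.4. The late tendon marker Tnmd was at 4.87, against 3.07, and at 1641 CPM in the E15.5 class, where all 7 markers were above the other cells. Both libraries were cell mixtures by sex as well, read from Xist and Y-linked genes: 1698 cells were male and 5799 female at E12.5, 697 and 2607 at E15.5.

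Connective tissue, tendon and cartilage carried most of the 7 genes well above the muscle lineage, with Tbx2 as the exception described below. In connective tissue-like cells at E12.5, Tbx5 stood at 83.6 CPM (79.6 to 87.8), with a UMI in 15.4% of cells. Tbx4 stood at 62.0 CPM (58.5 to 65.7) and Pitx1 at 286 CPM (279 to 294). Levels are compared here between classes and ages of 1 gene, not between genes, because capture of 3′ ends differs between transcripts. Endothelial-like cells served as the class in which these genes should be low. There Tbx5 had 2 UMIs (3.22 CPM, 0.390 to 11.6), Tbx4 had 1 UMI and Pitx1 had 7 UMIs (11.3 CPM, 4.53 to 23.2) at E12.5.

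**Figure D1:**
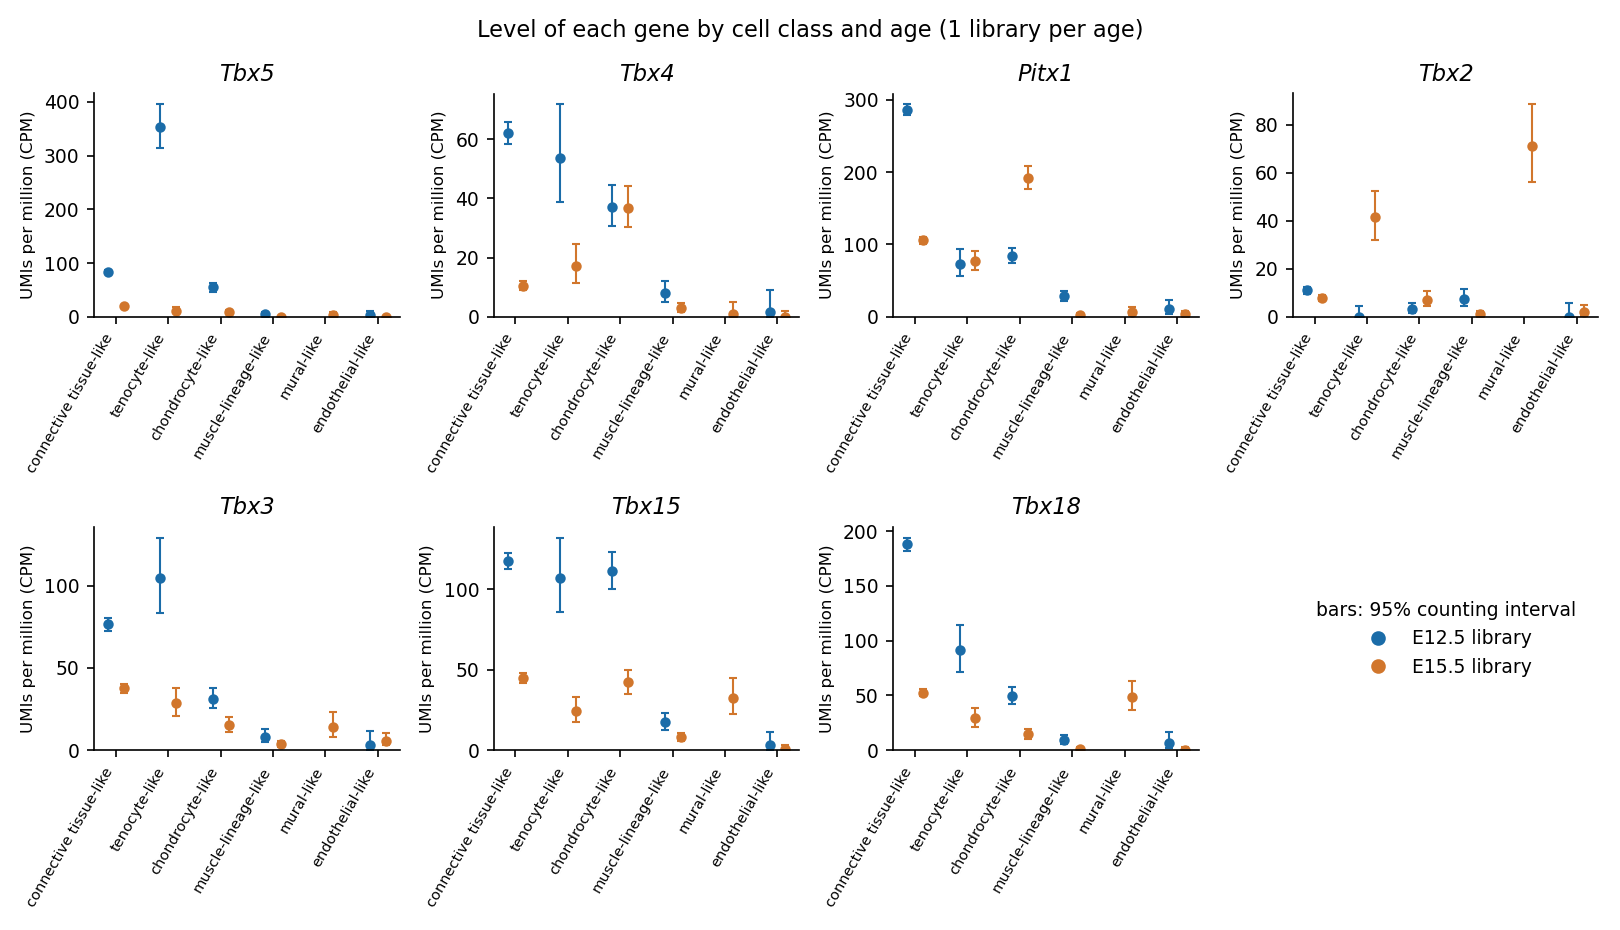
CPM (y axis, linear) of each of the 7 genes in 6 cell classes (x axis), with points for the E12.5 library (blue) and the E15.5 library (orange) and bars for the 95% counting interval. Tbx5 peaks in the E12.5 tenocyte-like cells at 353 CPM, Pitx1 is higher at E15.5 than at E12.5 in chondrocyte-like cells, and Tbx2 is highest in E15.5 mural-like cells. Mural-like cells were named at E15.5 only.

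The forelimb gene Tbx5 was highest in tendon at E12.5. Tenocyte-like cells held 290 Tbx5 UMIs, or 353 CPM (313 to 396), above connective tissue-like cells at 83.6 CPM and chondrocyte-like cells at 54.8 CPM (47.0 to 63.5). After each cell was thinned to 2000 UMIs, 39.3% (31.0 to 48.0) of 135 tenocyte-like cells and 12.8% (11.8 to 13.7) of 4791 connective tissue-like cells had a Tbx5 UMI. Thinning left out 327 shallower tenocyte-like cells, and the share over all 462 was 41.6%. At E15.5 the order was different. Tbx5 stood at 19.8 CPM (17.9 to 21.9) in connective tissue-like cells, 11.6 CPM (6.97 to 18.1) in tenocyte-like cells and 8.42 CPM (5.50 to 12.3) in chondrocyte-like cells. The last pair did not differ beyond their counting intervals.

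The hindlimb genes Tbx4 and Pitx1 had another range. At E12.5, Tbx4 stood at 62.0 CPM in connective tissue-like cells, 53.5 CPM (38.9 to 71.9) in tenocyte-like cells and 37.1 CPM (30.8 to 44.4) in chondrocyte-like cells, with the first and second not separated by their intervals. Pitx1 was lower in tenocyte-like cells, at 73.0 CPM (55.7 to 94.0), and in chondrocyte-like cells, at 83.9 CPM (74.2 to 94.5), than in connective tissue-like cells at 286 CPM. At E15.5 chondrocyte-like cells stood above connective tissue-like and tenocyte-like cells for both genes, but not above every cluster. Cells of unnamed clusters overlapped them, with Tbx4 at 33.2 CPM (27.3 to 40.1) and Pitx1 at 176 CPM (162 to 191). The connective tissue-like cluster led by Ube2ql1 and Pi15 had Pitx1 at 282 CPM. Chondrocyte-like cells had Tbx4 at 36.9 CPM (30.4 to 44.3) and Pitx1 at 192 CPM (177 to 208), while connective tissue-like cells had 10.4 CPM (9.02 to 12.0) and 105 CPM (101 to 110).

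Tbx2 was found at low levels outside a few classes. At E12.5 it stood at 11 CPM (9.55 to 12.6) in connective tissue-like cells and 7.53 CPM (4.53 to 11.8) in muscle-lineage-like cells. Chondrocyte-like cells had 3.1 CPM (1.48 to 5.69), and 462 tenocyte-like cells had 0 UMIs, where 3 UMIs would be 3.65 CPM. Cells of unnamed clusters had more, at 21.7 CPM (15.3 to 29.9). The unnamed cluster led by Aldh1a2 and Tshz2 had 36.5 CPM (23.7 to 53.9). At E15.5 tenocyte-like cells held 68 Tbx2 UMIs, or 41.5 CPM (32.2 to 52.5). The log2 ratio of the ages has no finite estimate here, and its lower limit was 3.17. Mural-like cells, the smooth muscle and pericyte coat of vessels, had the highest Tbx2 level of any class at E15.5, 71.1 CPM (56.3 to 88.6), against 7.86 CPM (6.66 to 9.22) in connective tissue-like cells and 1.97 CPM (0.537 to 5.05) in endothelial-like cells. A Tbx2 UMI was found in 47.4% of the 76 mural-like cells, and in 12.0% (5.64 to 21.6) after thinning.

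Tbx3, Tbx15 and Tbx18 were found in connective tissue, tendon and cartilage alike. At E12.5 Tbx3 stood at 105 CPM (83.7 to 129) in tenocyte-like cells, 76.6 CPM (72.7 to 80.6) in connective tissue-like cells and 31.3 CPM (25.5 to 38.0) in chondrocyte-like cells. Tbx15 did not separate these classes at E12.5, with 107 CPM (85.9 to 132), 118 CPM (113 to 123) and 111 CPM (99.9 to 123) in the same order. For Tbx18 the order was connective tissue-like at 188 CPM (182 to 194), tenocyte-like at 91.2 CPM (71.8 to 114) and chondrocyte-like at 49.8 CPM (42.4 to 58.2). At E15.5 mural-like cells carried Tbx18 at 48.6 CPM (36.5 to 63.4) and Tbx15 at 32.4 CPM (22.7 to 44.8), within reach of connective tissue-like cells at 52.7 CPM (49.5 to 56.0) and 44.8 CPM (41.8 to 47.9).

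In the muscle lineage the genes were near the endothelial-like level, and Tbx15 was the 1 gene whose CPM interval lay above the endothelial-like one at both ages. Pitx1 was at 28.1 CPM (22.0 to 35.5) at E12.5, from 71 UMIs in 615 cells, with a UMI in 6.44% (4.55 to 8.80) of thinned muscle-lineage-like cells and 0.847% (0.0215 to 4.63) of thinned endothelial-like cells. Median depth was 3746 and 3912 UMIs in these classes. At E15.5 muscle-lineage-like cells had Pitx1 at 3.1 CPM (1.86 to 4.83) and endothelial-like cells at 4.43 CPM (2.03 to 8.42), with overlapping intervals. In muscle-lineage-like cells Tbx15 had 17.4 CPM (12.7 to 23.4) at the earlier and 8.15 CPM (6.05 to 10.7) at the later age, against 3.22 CPM (0.390 to 11.6) and 0.986 CPM (0.119 to 3.56) in endothelial-like cells. These muscle-lineage-like intervals were not separate from those of every other class. Erythroid-like cells had Tbx15 at 31.8 CPM (10.3 to 74.3) from 5 UMIs at E12.5, and at 8.14 CPM (1.68 to 23.8) from 3 UMIs at E15.5.

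Within the lineage, Tbx15 stood highest in the fibre-forming clusters led by sarcomere genes. The E12.5 cluster led by Myh3 and Mylpf had Tbx15 at 38.7 CPM (21.2 to 64.9), and the E15.5 cluster led by Mylpf and Myl1 had 20.8 CPM (13.7 to 30.3). The E12.5 progenitor clusters led by Msc and Pax7 had 16.6 CPM (8.60 to 29.1) and 13.3 CPM (6.86 to 23.2), and those at E15.5 had 6.88 CPM (3.85 to 11.4) and 3.01 CPM (1.30 to 5.92). At E15.5 the fibre-forming interval lay above both progenitor intervals, while at E12.5 the intervals overlapped. Tbx5 was close to absent from muscle at E15.5, with 2 UMIs in 400 cells.

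Smaller classes also carried some UMIs of these genes. At E12.5 the 52 erythroid-like cells had 10 Pitx1 and 12 Tbx18 UMIs, and the 31 immune-like cells had 8 Tbx5 and 6 Pitx1 UMIs. Erythroid-like levels were thus 63.7 CPM (30.5 to 117) for Pitx1 and 76.4 CPM (39.5 to 134) for Tbx18. Immune-like levels were 70.6 CPM (30.5 to 139) for Tbx5 and 52.9 CPM (19.4 to 115) for Pitx1. The immune-like Tbx5 interval overlapped that of connective tissue-like cells. Free RNA in droplets and undetected doublets can give such counts, and their part in the low levels of muscle-lineage-like cells was not tested.

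Connective tissue held 16 clusters at the earlier and 11 at the later age, and the genes varied widely among them. At E12.5 Tbx5 ranged from 11.9 CPM in the cluster led by Alcam and Cxcl14 to 255 CPM in the cluster led by Col6a5 and Dkk2. Pitx1 ran the other way between the same clusters, from 529 CPM in the Alcam cluster to 44.0 CPM in the Col6a5 cluster. Tbx4 was also lowest in the Col6a5 cluster, at 17.6 CPM, and highest, at 135 CPM, in a cluster led by Twist2 and Scn1a. Tbx15 peaked in that Twist2 cluster as well, at 233 CPM, and Tbx18 peaked at 454 CPM in a cluster led by Slco3a1 and Gas2. Tbx3 peaked at 199 CPM in the cluster led by Ebf2 and Amot and was lowest, at 14.3 CPM, in the cluster led by Dcn and Kera.

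At E15.5 Tbx5 was highest, at 41.9 CPM, in the cluster led by Clec3b and Tnxb, where Tbx4 was lowest at 3.87 CPM. Pitx1, Tbx2 and Tbx3 all peaked in the cluster led by Ube2ql1 and Pi15, at 282, 11.4 and 67.6 CPM. Tbx4 was highest, at 34.3 CPM, in the cluster led by Mecom and Gas2.

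The balance of forelimb and hindlimb genes was followed as the log2 ratio of Tbx5 to Pitx1 UMIs in each cluster. Because the genes differ in capture, only its differences between clusters are read, not its sign. At E12.5 the ratio ran from -5.47 (-6.49 to -4.62) in the Alcam cluster to 2.54 (1.74 to 3.43) in the Col6a5 cluster. These were the ends of 23 connective tissue-like, tenocyte-like, chondrocyte-like or unnamed clusters. The tenocyte-like cluster stood second at 2.27 (1.87 to 2.70), against -1.77 (-1.86 to -1.69) in connective tissue-like cells and -0.61 (-0.90 to -0.34) in chondrocyte-like cells. At E15.5 the tenocyte-like ratio was -2.73 (-3.51 to -2.03), connective tissue-like cells stood at -2.41 (-2.57 to -2.25), and chondrocyte-like cells at -4.51 (-5.14 to -3.94). Tendon stood on the Tbx5 side of connective tissue at E12.5 and level with it at E15.5.

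**Figure D2:**
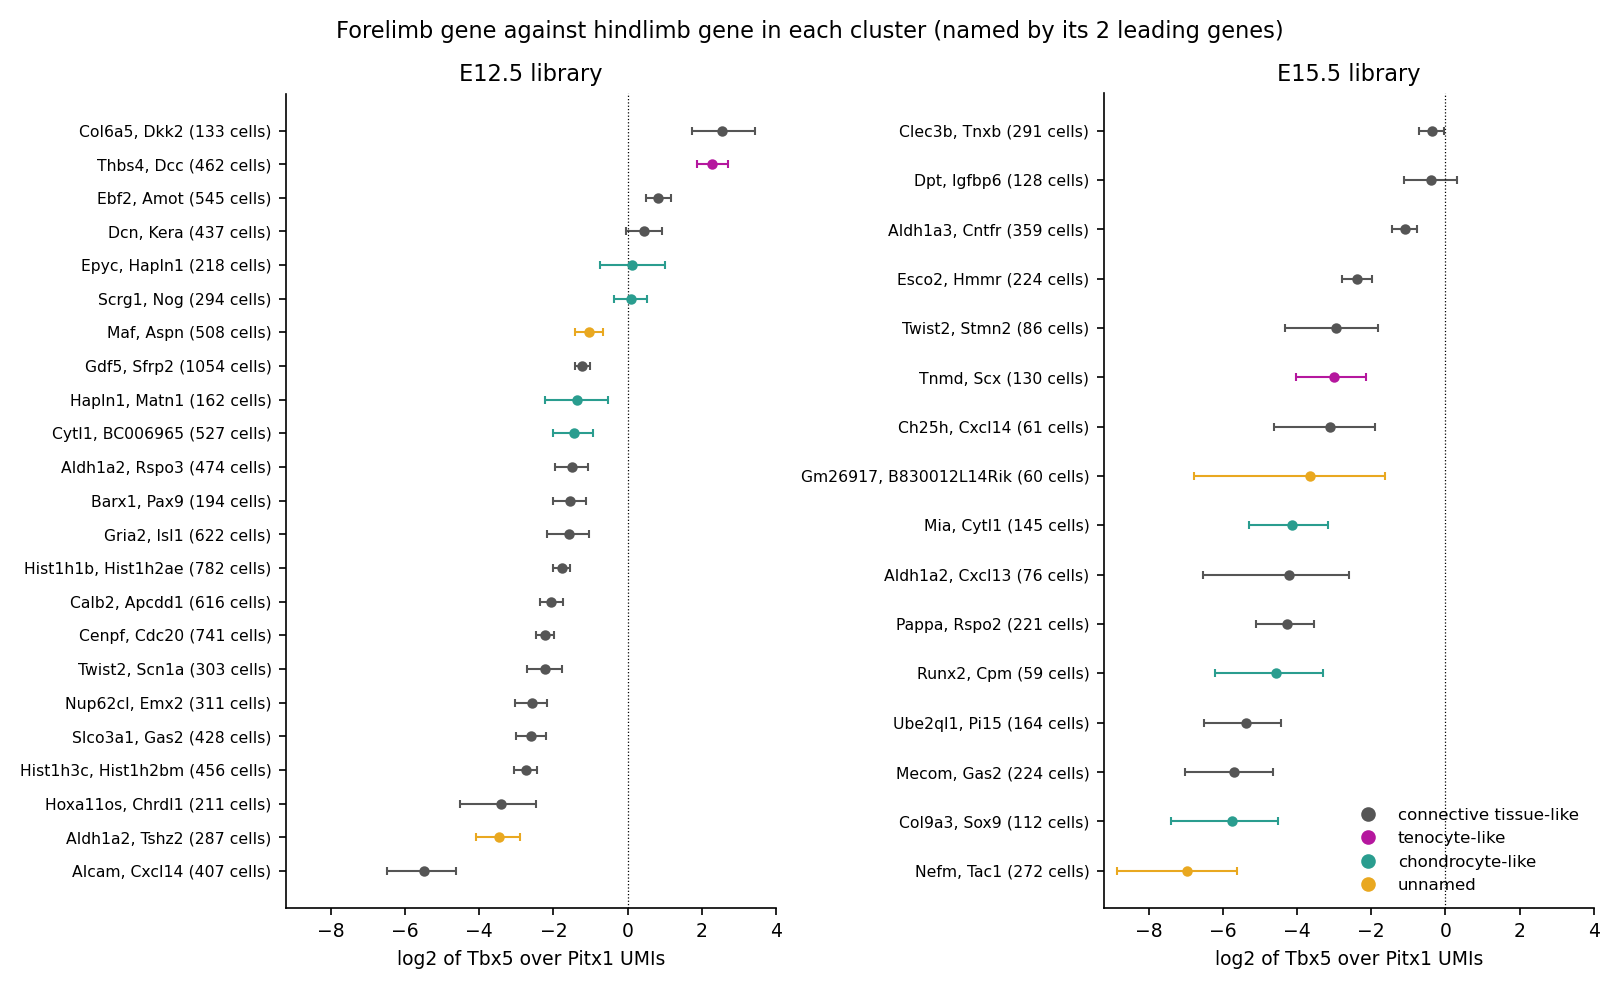
Log2 of Tbx5 over Pitx1 UMIs (x axis) in each connective tissue-like, tenocyte-like, chondrocyte-like or unnamed cluster of at least 50 cells (rows, named by their 2 leading genes), E12.5 on the left and E15.5 on the right, with 95% counting intervals. The tenocyte-like cluster stands at 2.27 at E12.5 and the larger one at -3.01 at E15.5, and 1 cluster at E15.5 with 0 Tbx5 UMIs is not drawn.

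This balance moved with the sex of the cells, which separates embryos of different sex. In E12.5 connective tissue-like cells log2 Tbx5 over Tbx4 UMIs was 1.75 (1.41 to 2.10) in male and 0.06 (-0.08 to 0.20) in female cells. At E15.5 the order was the reverse, with 0.06 (-0.56 to 0.69) in male and 1.19 (0.89 to 1.5) in female cells. In tenocyte-like cells at E12.5 log2 Tbx5 over Pitx1 UMIs was 3.97 (2.33 to 6.30) in 71 male and 1.35 (0.81 to 1.92) in 189 female cells, both above connective tissue-like cells of the same sex at -0.64 and -2.11. The share of forelimb and hindlimb tissue taken from each embryo was not tested, and it cannot be told apart from a difference in expression.

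Tbx5 was found with Pitx1 in the same cell less often than independence gives at both ages, and at E12.5 Tbx4 was found with Pitx1 more often. Co-detection was measured as the number of cells with a UMI of both genes over the number expected if the genes were spread independently, in connective tissue-like cells thinned to 2000 UMIs. At E12.5, 150 of 4791 cells had Tbx5 with Pitx1 where 224 were expected, a ratio of 0.669 (0.567 to 0.786). Tbx5 with Tbx4 was found in 54 cells where 68.1 were expected, a ratio of 0.793 (0.596 to 1.03). For Tbx4 with Pitx1 the numbers were 291 and 196, a ratio of 1.49 (1.32 to 1.67).

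At E15.5 the ratio of Tbx5 with Pitx1 was lower, beyond the counting intervals at full depth only. It was 0.253 (0.0521 to 0.739) from 3 of 1872 thinned cells, an interval that overlapped the thinned E12.5 one. At full depth it was 0.352 (0.255 to 0.474) from 43 of 1878 cells, against 0.725 (0.649 to 0.809) at E12.5, where cells were shallower. Tbx5 with Tbx4 stood at 0.875 (0.0222 to 4.88) from 1 thinned cell, which cannot show a difference, and at 0.464 (0.240 to 0.810) from 12 cells at full depth. Tbx4 with Pitx1 stood at 1.5 (0.648 to 2.96) thinned and 1.64 (1.37 to 1.95) at full depth. At full depth UMIs of both Tbx5 and a hindlimb gene fell in 369 connective tissue-like cells of the E12.5 library and in 48 of the E15.5 library. These counts do not show cells that make both. At E12.5 a Tbx5 UMI was also found in 16.1% of the 31 immune-like and 5.77% of the 52 erythroid-like cells, and a Pitx1 UMI in 12.9% and 13.5%, at median depths of 3545 and 2686 UMIs. In endothelial-like cells the shares were 1.53% for Tbx5 and 2.29% for Pitx1. The part of carried-over RNA and remaining doublets was not tested.

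In cartilage at E12.5 the same pairs lay on the same sides of 1. Tbx5 with Pitx1 had a ratio of 0.442 (0.212 to 0.813) in chondrocyte-like cells at full depth, and Tbx4 with Pitx1 had 2.04 (1.45 to 2.79). In E12.5 tenocyte-like cells the values at full depth were 0.540 (0.270 to 0.967) and 4.45 (2.59 to 7.13). At E15.5 tenocyte-like cells had 2.10 (1.32 to 3.18) for Tbx4 with Pitx1 and 0.746 (0.242 to 1.74) for Tbx5 with Pitx1. In muscle-lineage-like cells 14 cells had Tbx5 at E12.5 and 2 at E15.5, too few to read co-detection.

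**Figure D3:**
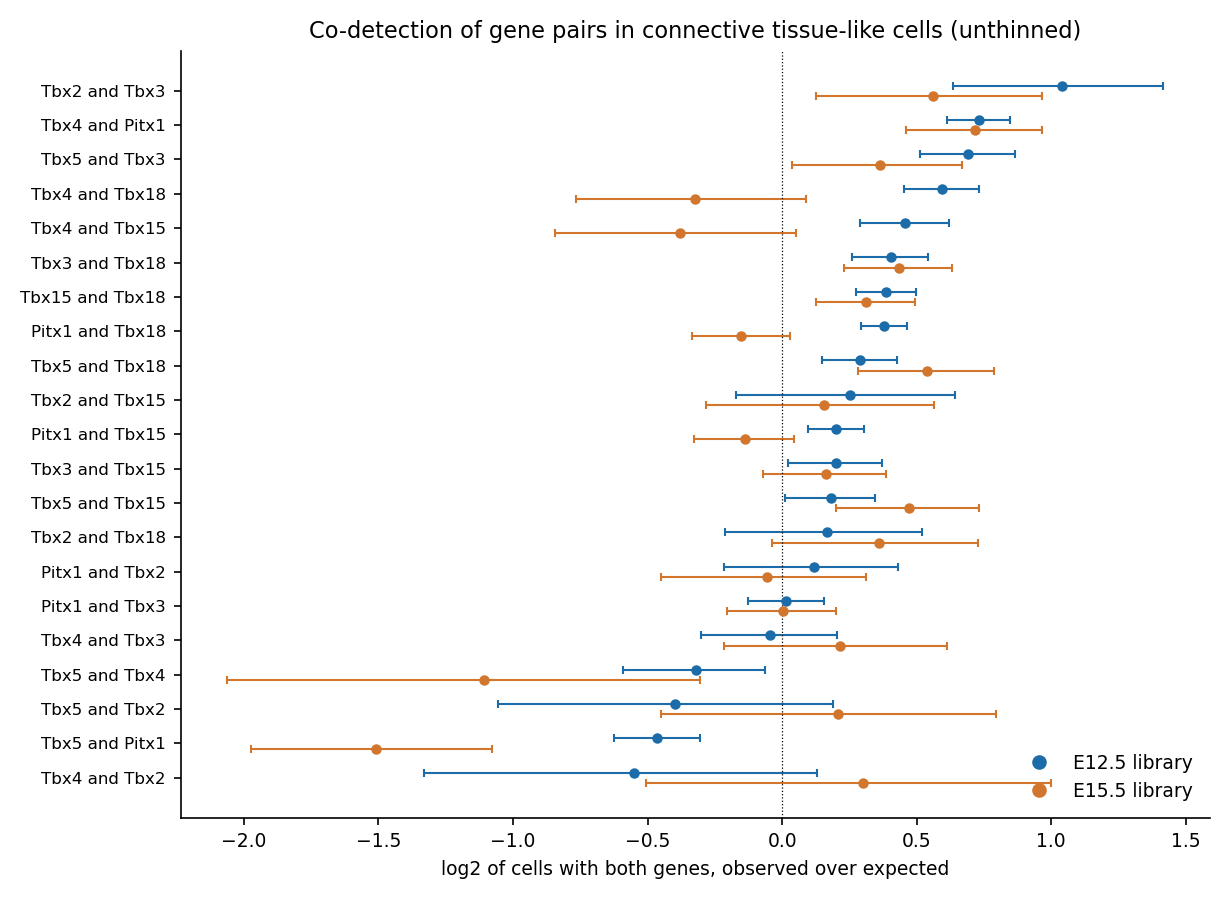
Log2 of the observed over the expected number of connective tissue-like cells with a UMI of both genes (x axis) for all 21 gene pairs (rows), at full depth, with 95% counting intervals, E12.5 in blue and E15.5 in orange. Tbx5 with Pitx1 and Tbx5 with Tbx4 lie below 0 at both ages, and Tbx2 with Tbx3, Tbx4 with Pitx1 and Tbx5 with Tbx3 lie above 0 at both ages.

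Among all 21 pairs at full depth, the interval lay above 1 for 12 pairs at E12.5 and for 7 at E15.5, and all 7 were among the 12. They were Tbx2 with Tbx3, Tbx4 with Pitx1, Tbx5 with Tbx3, Tbx3 with Tbx18, Tbx15 with Tbx18, Tbx5 with Tbx15 and Tbx5 with Tbx18. The interval lay below 1 for Tbx5 with Tbx4 and Tbx5 with Pitx1 at both ages, and for no other pair. Cells of greater depth have more UMIs of every gene, which adds to ratios at full depth. Pairs of other genes were not counted in the same way, so these counts are not read as particular to the 7 genes. After thinning, Tbx5 with Tbx3 had a ratio of 1.72 (1.43 to 2.04) and Tbx2 with Tbx3 of 1.62 (1.03 to 2.44) at E12.5.

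Some pairs with the hindlimb genes had different full-depth ratios in the 2 libraries. At full depth Tbx4 with Tbx18 went from 1.51 (1.37 to 1.66) at the earlier age to 0.80 (0.588 to 1.06) at the later. Tbx4 with Tbx15 had 1.37 (1.22 to 1.54) and 0.769 (0.556 to 1.04), and Pitx1 with Tbx18 had 1.30 (1.22 to 1.38) and 0.900 (0.792 to 1.02). Tbx5 with Tbx18 had 1.22 (1.11 to 1.35) and 1.45 (1.22 to 1.72).

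The remaining members were then compared between connective tissue-like cells with a Tbx5 UMI and none of Tbx4 or Pitx1, called Tbx5 cells, and those with a Tbx4 or Pitx1 UMI and none of Tbx5, called hindlimb-gene cells. There were 817 and 2916 such cells at E12.5 and 225 and 840 at E15.5. Median depth was 2285 and 2552 UMIs at E12.5, and 11516 and 8966 at E15.5. Cells called male made up 30.2% and 13.4% of the sexed cells at E12.5, and 12.2% and 23.8% at E15.5. Many cells of either kind stay unsorted at this depth, 3612 of 7714 at E12.5. Each set pools all connective tissue-like clusters, and no ratio within clusters was taken. For every gene compared below, the mix of clusters in the sets cannot be told apart from a difference between cells of a cluster.

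Tbx3 was the member that stood apart at E12.5 in these pooled sets. It was at 152 CPM (135 to 170) in Tbx5 cells and 61.2 CPM (55.9 to 66.9) in hindlimb-gene cells, a log2 ratio of 1.31 (1.10 to 1.52). By sex it was 1.07 (0.56 to 1.57) in male and 1.41 in female cells. Of the 4 members that did not choose the cells, Tbx3 was the 1 past 2-fold, and 5.21% of 12696 genes passed that fold in either direction. Tbx15 stood at 119 and 128 CPM, a log2 ratio of -0.10 (-0.31 to 0.11), and Tbx2 at 8.03 and 10.3 CPM, with -0.35 (-1.23 to 0.43). For Tbx18 the values were 184 and 224 CPM, with -0.28 (-0.45 to -0.12).

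At E15.5 0 of the 4 passed 2-fold, where 6.43% of 12367 genes did. Tbx18 stood at 76.8 CPM (66.7 to 87.9) in Tbx5 cells and 47.2 CPM (42.6 to 52.1) in hindlimb-gene cells, a log2 ratio of 0.70 (0.45 to 0.95). Tbx15 was at 57.0 and 40.4 CPM, a ratio of 0.50 (0.21 to 0.78), and Tbx3 at 49.0 and 38.9 CPM, a ratio of 0.33 (0.03 to 0.63). Tbx2 stood at 6.94 and 7.90 CPM, with -0.19 (-1.01 to 0.57). In female cells, which hold most sexed cells, the Tbx18 ratio was 0.49.

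Genes of limb position showed how the 2 sets of cells differed beyond the members. Of 18 listed genes, 17 reached 20 UMIs at E12.5, with 3 past 2-fold higher and 5 past 2-fold lower in Tbx5 cells, where 2.81% and 2.39% of all genes compared were. At E15.5 it was 2 higher and 7 lower of 15, where 2.07% and 4.36% were. The lower genes at both ages were Isl1, a hindlimb field factor upstream of hindlimb outgrowth, and Hoxc8, Hoxc9, Hoxc10 and Hoxc11, which mark caudal levels of the body axis. Hoxc10 stood at 21.1 and 116 CPM at E12.5 and at 6.21 and 55.1 CPM at E15.5, log2 ratios of -2.46 (-2.94 to -2.01) and -3.15 (-3.94 to -2.45). Hoxb4, a more rostral Hox gene, was higher in Tbx5 cells, at 15.1 and 4.75 CPM at E12.5 and 8.41 and 1.09 CPM at E15.5, ratios of 1.66 (0.92 to 2.39) and 2.94 (1.78 to 4.24).

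Hand2, a factor of the posterior limb bud, was higher in Tbx5 cells at E12.5 and lower at E15.5, with log2 ratios of 0.78 (0.53 to 1.02) and -1.02 (-1.40 to -0.66). The regulators Meis1 and Meis2 were close to even at E12.5, at -0.08 (-0.36 to 0.20) and 0.00 (-0.17 to 0.17). Their ratios at E15.5 were -0.73 (-1.17 to -0.31) and -0.39 (-0.59 to -0.20).

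**Figure D4:**
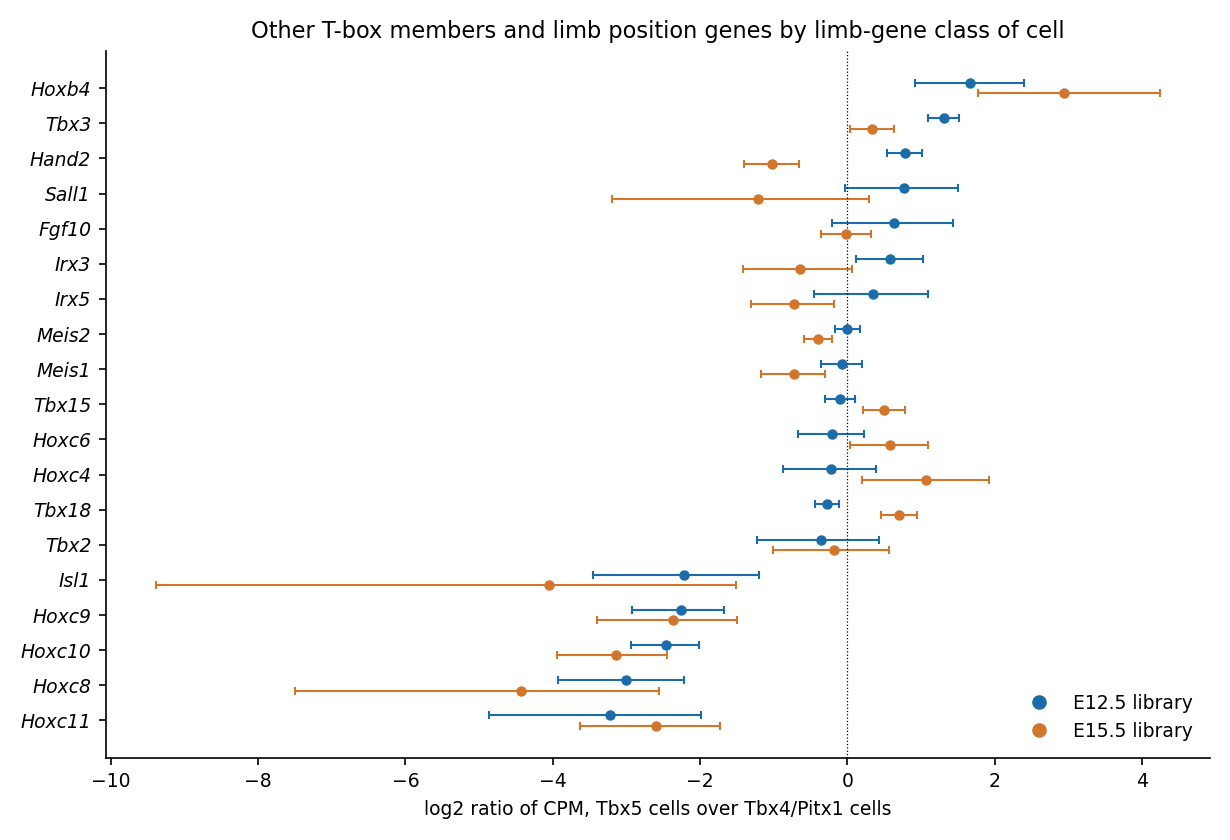
Log2 ratio of CPM in Tbx5 cells over hindlimb-gene cells (x axis) for Tbx2, Tbx3, Tbx15, Tbx18 and the limb position genes with at least 20 UMIs at both ages (rows), in connective tissue-like cells, with 95% counting intervals. Isl1 and Hoxc8 to Hoxc11 lie at -2.22 or lower at both ages, and Tbx3 stands at 1.31 at E12.5 and 0.33 at E15.5.

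Across all genes with at least 100 UMIs in the 2 sets, the highest ratios at E12.5 were those of Ngfr at 2.09 (1.58 to 2.61) and Grem1, a BMP antagonist, at 2.08 (1.80 to 2.36). Grem1 stood at 108 CPM in Tbx5 cells and 25.7 CPM in hindlimb-gene cells. The lowest were Hoxc11 at -3.23 (-4.87 to -1.98) and Hoxc8 at -3.00 (-3.92 to -2.21). At E15.5 the highest were Cxcl10 at 2.02 (1.67 to 2.38), a chemokine, and 5330417C22Rik at 1.93 (1.34 to 2.53). Clec3b, which leads the cluster with most Tbx5, followed at 1.83 (1.67 to 2.0), with 239 and 67.0 CPM.

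Of the digit and signalling genes listed around Tbx2 and Tbx3, 8 of 12 reached 20 UMIs at each age. At E12.5, 2 were higher and 1 lower by 2-fold, where 2.81% and 2.39% of all genes compared were, and at E15.5 0 were higher and 1 lower, where 2.07% and 4.36% were. Grem1 and Bmp7 were past 2-fold higher in Tbx5 cells at E12.5, with Bmp7 at 29.1 and 11.1 CPM, and Msx1 was past 2-fold lower with 1 and 36 UMIs. At E15.5 Ptch1, the hedgehog receptor, was past 2-fold lower, at 15.7 and 36.3 CPM.

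Between the ages, 6 of the 7 genes were lower by 2-fold or more at E15.5 in connective tissue-like cells, and 5 were under 6 of the 9 alternative settings. Tbx3 lay at the threshold and missed it in 5 of these, and Pitx1 missed it in male cells. In this class 24.5% of 15262 genes were that much lower and 10.3% that much higher, and the median gene had a log2 ratio of -0.38. The median over the 7 genes was -1.44. Tbx4 had the lowest ratio, -2.57 (-2.80 to -2.36), from 62.0 to 10.4 CPM. Tbx5 followed at -2.08 (-2.24 to -1.91) and Tbx18 at -1.83 (-1.94 to -1.73). Pitx1 had -1.44 (-1.51 to -1.37), Tbx15 -1.39 (-1.51 to -1.28) and Tbx3 -1.02 (-1.15 to -0.89). Tbx2 had -0.48 (-0.79 to -0.17), close to the median gene.

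The limb selector genes gave different age ratios in male and female cells. Tbx5 had -3.00 in male and -1.89 in female cells, Tbx4 -1.32 and -3.03, and Pitx1 -0.39 and -1.80. All 6 values were negative, but their sizes moved with sex, as did the Tbx5 to Tbx4 balance. Each age is 1 library, so age and library cannot be told apart, and fewer expressing cells and less RNA per cell cannot be told apart in these sums.

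Cartilage differed from connective tissue in Pitx1. In chondrocyte-like cells Pitx1 stood at 83.9 CPM in the E12.5 library and at 192 CPM in the later one, which is 1.19 (0.98 to 1.40) on the log2 scale. The share of thinned cells with a Pitx1 UMI was 13.5% (11.3 to 16) and 29.1% (24.4 to 34.1). Tbx4 was even, at -0.01 (-0.39 to 0.37). Tbx5 was lower at E15.5, at -2.70 (-3.36 to -2.10). In total 4 of the 7 were lower by 2-fold and 2, Pitx1 and Tbx2, higher, where 14.3% and 9.37% of 11715 genes were. The Tbx2 value rests on 10 and 22 UMIs and was 1.20 (0.06 to 2.44). Without doublet removal the Pitx1 ratio was 0.71 (0.54 to 0.88). Chondrocyte-like cells were also sorted into Tbx5 cells and hindlimb-gene cells. Tbx5 cells made up 28.6% of these sets together in the earlier library and 2.70% in the later one. In connective tissue-like cells the shares were 21.9% and 21.1%. How much forelimb and hindlimb tissue each class held was not tested, and it cannot be told apart from a change in expression.

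Tbx5 in tendon had the lowest age ratio of any member over the 4 classes compared. With 353 CPM early and 11.6 CPM late, its log2 ratio was -4.93 (-5.68 to -4.26). Pitx1 was even at 0.07 (-0.38 to 0.54), from 73.0 to 76.8 CPM. Tbx4, Tbx3, Tbx15 and Tbx18 had ratios between -2.13 and -1.64. In this class 5 of 7 were lower and 1, Tbx2, higher by 2-fold, where 22.9% and 9.22% of 9288 genes were. The classes rest on clusters of different leading genes, Thbs4 and Dcc at E12.5 and Tnmd and Scx at E15.5. They therefore need not be the same cells at 2 ages. Of tenocyte-like cells sorted as above, Tbx5 cells made up 78.4% early and 14.5% late. The share of forelimb and hindlimb tissue was not tested for tendon either.

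In muscle-lineage-like cells the 6 members with at least 20 UMIs over both libraries were all lower by 2-fold at E15.5, where 18.9% of 11266 genes were, and 4.64% were that much higher. Tbx5, with 15 and 2 UMIs, stayed under that minimum. The values were at or near the endothelial-like level for most of them. Pitx1 had the lowest ratio of the 6, at -3.18 (-4.0 to -2.44), and Tbx15 the highest, at -1.10 (-1.71 to -0.48).

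Most other T-box and Pitx genes gave little signal in connective tissue, but Mga did not follow this. Of 13 listed, 12 were found under the symbol searched and 4 reached 20 UMIs there, of which 2 were lower by 2-fold at E15.5 and 1 was higher, where 24.5% and 10.3% of all genes in this class were. Mga, a T-box gene expressed in many tissues, stood at 158 and 80.3 CPM, a log2 age ratio of -0.98 (-1.07 to -0.89). Tbx1 had 7 and 22 UMIs, and Tbr1 had 14 and 7. Of the limb position genes 11 of 17 measured were lower by 2-fold and 1 higher, against the same 24.5% and 10.3%. That gene was Fgf10, the mesenchymal growth factor of limb outgrowth, at 7.62 and 35.7 CPM, a ratio of 2.23 (1.97 to 2.50). Of the digit and signalling genes 6 of 11 were lower by 2-fold and 0 higher, against those shares too.

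Across clusters of at least 50 cells, each member's pattern was set beside that of 5727 genes by the Pearson correlation of log2(CPM + 10), averaged over the libraries, with 29 clusters in the earlier and 25 in the later. The clusters of an age share 1 library, and these values are a description. Clusters of all classes were used, muscle-lineage-like, endothelial-like and erythroid-like ones included. A high r therefore need not hold among connective tissue-like clusters alone, where no r was taken. Tbx4 was most like Foxp2 (mean r 0.881) and Pitx1 (0.866), and Pitx1 was most like Tbx4. Mab21l2 stood high for both, at 0.826 and 0.846. Tbx5 was most like Smoc2 (0.768) and Axl (0.759). Tbx3 was most like Tbx3os1 (0.861), the antisense gene that overlaps it, and Wnt5a (0.829).

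Tbx15 and Tbx18 shared Runx1t1 among their 3 nearest genes, at 0.842 and 0.873. Tbx15 was most like the collagen receptor gene Ddr2 (0.861), and Tbx18 had the homeobox gene Shox2 second (0.867). Tbx2 had the weakest matches, led by Myl9 at 0.570, a contractile gene of smooth muscle. Tbx2 and Tbx5 fell short of the minimum set for the ranked genes, 50 CPM in a cluster of each library. How far low counts lowered their r was not tested. Among the members themselves Tbx4 with Pitx1 had r of 0.887 and 0.845 at the 2 ages, and Tbx5 with Pitx1 had 0.403 at each. High r was not particular to the hindlimb pair. Pitx1 with Tbx18 had 0.815 and 0.576, Tbx4 with Tbx15 had 0.806 and 0.580, and Tbx5 with Tbx15 had 0.726 and 0.636. Tbx5 with Tbx4 had 0.575 and 0.203.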

How the data were processed

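The matrices deposited by the authors hold unnormalized UMI counts for each gene in each barcode and come from Cell Ranger 4.0.0, per the file headers. The submitters' processing notes name build mm10 and Seurat 4.3.0. The counting settings are not given in the sources used here. Barcodes were kept from 500 detected genes up, if less than 10% of UMIs were mitochondrial. Likely doublets were removed by simulated doublets, at 0.8% of barcodes per 1000 recovered, 1270 at E12.5 and 190 at E15.5. Cells were clustered per library (2000 variable genes, 30 principal components, 15 neighbours, Leiden resolution 2, leidenalg 0.10.2). The 7 genes, the listed genes and sex genes, 55 in all, were kept out of the clustering. A cluster was named "-like" from at least 3 detected markers of a class, by a scoring rule set after the clusters were seen. Members, markers and lists were chosen with earlier results of these data known.

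UMIs were summed per class and given as CPM with exact Poisson intervals. Ratios have exact conditional binomial intervals, and shares have Clopper-Pearson intervals at 95%. Cells were thinned to 2000 UMIs for shares and co-detection, which left out 2923 (E12.5) and 6 (E15.5) connective tissue-like cells. Genes with at least 20 UMIs were compared, and 2-fold was the threshold. A class with 0 UMIs was given a floor of 3. Named genes were all members, listed genes with at least 20 UMIs, the 3 most similar genes per member, and the 5 highest and lowest genes with at least 100 UMIs in the contrast of cells, of which the leading ones are printed. The code was tested on simulated data. Alternatives varied doublets, cell filter, resolution, sex, thinning and thresholds. One of the listed genes and some sequence are not reported here.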

Additional observations from a re-analysis of the deposited data

Results flagged for a closer look

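The direction of the age ratio differed between classes for 2 genes, and no difference was tested, since each age is 1 library. How much forelimb and hindlimb tissue each class held was not tested either. For Pitx1 the log2 ratio of E15.5 over E12.5 was -1.44 in connective tissue-like cells, -3.18 in muscle-lineage-like cells and 1.19 in chondrocyte-like cells. For Tbx2 it was -0.48 in connective tissue-like cells, -2.53 in muscle-lineage-like cells and 1.20 in chondrocyte-like cells, where it rests on 10 and 22 UMIs.

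The direction of the Tbx18 ratio between Tbx5 cells and hindlimb-gene cells differed between ages, also without a test. Its log2 value was -0.28 at the earlier and 0.70 at the later age.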

How the results depend on the processing

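No value whose counting interval lay on 1 side of no difference changed direction under an alternative that was run. Values whose interval spanned it did. Co-detection of Tbx5 with Tbx4 at E15.5 reached 1.29 when expected within clusters, and that of Tbx4 with Pitx1 at E15.5 fell to 0.898 at resolution 0.5. Between Tbx5 cells and hindlimb-gene cells the log2 ratio of Tbx2 at E12.5 became 0.23 against Tbx4 alone, that of Tbx15 at E12.5 became 0.14 in male cells, and that of Tbx2 at E15.5 became 0.07 at resolution 0.5. No paired analysis was possible because each age is 1 library. The co-detection ratio of Tbx5 with Tbx4 at E12.5 was 0.289 in male cells and 0.470 with at least 2 UMIs of each gene. That of Tbx4 with Pitx1 at E12.5 was 1.91 in male cells, 2.0 with at least 2 UMIs and 1.30 when expected within clusters. At E15.5 the ratio of Tbx5 with Tbx4 was 0 in male cells, 0 in female cells, 0 when thinned to 1000 UMIs and 0 with another thinning seed. For Tbx5 with Pitx1 at E15.5 it was 0 in male cells and 0 when thinned to 1000 UMIs. With all limb clusters together, unnamed ones included, 1 member in place of 0 passed 2-fold between Tbx5 cells and hindlimb-gene cells at E15.5. The following were chosen after seeing the data. Log2 Tbx5 over Pitx1 UMIs in tenocyte-like cells was 3.97 in male and 1.35 in female cells at E12.5, and -3.66 in male cells at E15.5. The Pitx1 age ratio in chondrocyte-like cells was 0.71 without doublet removal, 1.53 at resolution 1.0, 1.60 at resolution 0.5 and 1.87 in male cells. The cause was not tested. At resolution 0.5 no E12.5 cluster was tenocyte-like, so that value is missing. Thinning to 2000 UMIs left 69 Tbx5 and 31 Tbx4 cells at E15.5, which sets the wide intervals there.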
